A study of Bos taurus with 48 samples.

Results

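The LGALS3-APP and NDN-APBB1IP pairs are 2 potential ligand-receptor pairs of the bovine cumulus-oocyte complex (COC). In each, one gene is expressed by the oocyte and its partner by the cumulus cells around it. The study inferred such pairs from protein interaction databases and receptor annotation, and called for experimental evidence of them. Its term ligand covers any protein that binds a receptor or a member of a receptor complex. The 4 member genes are LGALS3 (ENSBTAG00000002326), listed as an oocyte ligand of cumulus APP (ENSBTAG00000017753), and NDN (ENSBTAG00000002186), listed as a cumulus ligand of oocyte APBB1IP (ENSBTAG00000012526). They were found by gene identifier among the 24616 genes of the expression table and belong to the 12428 genes detected in COCs, that is, with FPKM (fragments scaled to transcript length and library size) over 0.5 in at least 8 of the 16 libraries of a sample type. The members had been chosen because each was detected on one side of the complex and not on the other, so their oocyte and cumulus levels are described here without a test. The variation between COCs was not part of that choice and was tested. The contrast between cumulus layers was tested too, but for APP and NDN it is not independent of that choice. Both met the detection rule in outerCCs and not in innerCCs, where each was over 0.5 in 7 of 16 libraries.

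The study asked how genes expressed in the oocyte relate to genes expressed in its own cumulus cells. A total of 16 COCs were aspirated from antral follicles of slaughterhouse ovaries of Bos taurus cows, without any treatment, and each was taken apart with trypsin into the outer cumulus cells (outerCC), the cumulus layers nearest the zona pellucida (innerCC) and the denuded oocyte. Each of the 48 samples gave 1 Smart-seq2 library of polyadenylated RNA from amplified cDNA, so each sample type has 16 libraries and the COC number joins the libraries of a complex. The age of the cows, the number of cells in each cumulus sample and the animal behind each COC are not given in the sources used here, and the p-values below therefore measure the spread between COCs.

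Galectin-3, the product of LGALS3, is a lectin that binds beta-galactosides on glycoproteins, leaves the cell by a route that needs no signal peptide, and can crosslink receptors at the cell surface. The amyloid precursor protein (APP) is a transmembrane protein that is cut by the alpha, beta and gamma secretases and binds adaptors of the APBA and APBB families through its cytoplasmic tail. Necdin (NDN) is a MAGE-family protein of the nucleus and cytoplasm, encoded by an imprinted gene and known as a brake on the cell cycle. APBB1IP, also called RIAM, is an intracellular adaptor that links active RAP1 to talin and so promotes integrin activation, best known in leukocytes. Cumulus cells reach the oocyte membrane through transzonal projections that cross the zona pellucida.

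The libraries differed in how much of the transcriptome they held. Oocytes had 8525 to 11340 genes with FPKM over 0.5 and outerCCs 9054 to 11851. The innerCCs fell into 2 sets by COC number, with 648 to 2639 genes in the 8 COCs numbered 176 to 184 and 5876 to 10295 genes in the 8 COCs numbered 185 to 192. Oocytes and outerCCs carried their defining markers, and the innerCCs did so unevenly. Of 14 symbols chosen for each kind, 10 oocyte and 5 cumulus markers could be matched. All of these stand in the study's lists of genes specific to a sample type, made on these samples, so this check is not independent. The summed FPKM of 10 oocyte markers (GDF9 and BMP15 among them) was 1052 to 2956 in oocytes, and that of 5 cumulus and granulosa markers (INHA and INHBA among them) was 209 to 5446 in outerCCs. In innerCCs the latter sum was 253 to 2107 in COCs 185 to 192 but 4.42 to 179 in COCs 176 to 184, where COCs 177, 179, 180, 181 and 183 lay below the oocyte median of 18.7. HAS2, one of these 5 markers, went the other way, with medians of 16.5 FPKM in oocytes and 0.172 in outerCCs. INHA, INHBA, CYP11A1 and CYP19A1 had oocyte medians of 0.366, 0.328, 0.0818 and 0.0465. The oocyte median of 18.7 was thus mostly HAS2, and an innerCC below it need not hold less cumulus RNA than an oocyte. No oocyte had HAS2 over 26 FPKM. The outerCC of COC 191 stood apart with an oocyte marker sum of 515, against an outerCC median of 1.9, and the oocyte of the same COC had the highest cumulus marker sum of the oocytes, at 187 against a median of 18.7.

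LGALS3 was an abundant oocyte transcript that was low or listed at 0 in most cumulus libraries. Its FPKM in oocytes ran from 35.2 through a median of 97.7 to 194, and it was over 0.5 in 16 of 16. Its mean level stood above that of 88.2% of the 10327 genes detected in oocytes. In outerCCs the lowest value was 0, the median 0.396 and the highest 35.7, with 5 of 16 libraries over 0.5 and 12 of 16 over 0.1. In innerCCs LGALS3 was listed at 0 in 10 of 16 libraries and reached 19.7. All oocyte libraries lay above all innerCC libraries, a pattern that 20.1% of the genes detected in COCs showed, whereas the outerCC of COC 191 overlapped the lowest oocyte. Within COCs, the oocyte exceeded the outerCC in 16 of 16, as it did for 25.6% of genes, and the mean difference was 5.57 ± 1.27 (SD, n = 16) on the log2(FPKM + 1) scale.

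APP was highest in the outer cumulus cells. Its FPKM there ran from 0.336 through a median of 6.34 to 23.9, and 15 of 16 libraries were over 0.5. The exception was COC 186, whose value of 0.336 corresponded to about 1 fragment, with a 95% Poisson interval of 0.00851 to 1.87 FPKM. In oocytes the range was 0 to 1.14 with a median of 0.139, and in innerCCs it was 0 to 3.13 with a median of 0.274. APP was lower in the oocyte than in the outerCC of the same COC in 16 of 16 COCs, which was so for 17.1% of genes, and the mean difference was -2.61 ± 1.11 (SD, n = 16) on the log2(FPKM + 1) scale.

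NDN was also highest by median in the outer cumulus cells, and its coefficient of variation of FPKM was the lowest of the 4. It was not confined to that layer. In COCs 185 to 192 its median was 9.32 FPKM in innerCCs and 15.1 in outerCCs. Its outerCC FPKM ran from 3.38 through a median of 17 to 25.9, and that coefficient, between COCs, was 37.6%, lower than in all but 7.36% of the 10459 genes detected in outerCCs. Only COCs 180 and 181 were under 10, at 3.38 and 5.72. Oocyte values ran from 0 to 1.54 with a median of 0.247, below every outerCC, a pattern that 8.84% of genes showed. The highest oocyte value belonged to COC 191, the oocyte with the highest cumulus marker sum.

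APBB1IP was a low and variable oocyte transcript. Its oocyte FPKM ran from 0.867 through a median of 3.68 to 17.2, and all 16 oocytes were over 0.5. The coefficient of variation was 95.7%, above that of 90.3% of the genes detected in oocytes, and the oocytes of COCs 180 and 190 were highest at 17.2 and 12. In cumulus cells APBB1IP was listed at 0 in 14 of 16 outerCCs and 13 of 16 innerCCs. The one cumulus library over 0.5 was the outerCC of COC 191, at 0.905. On the per-length FPKM scale the levels in their own sample types were thus ordered LGALS3, NDN, APP and APBB1IP by median.

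**Figure D1:**
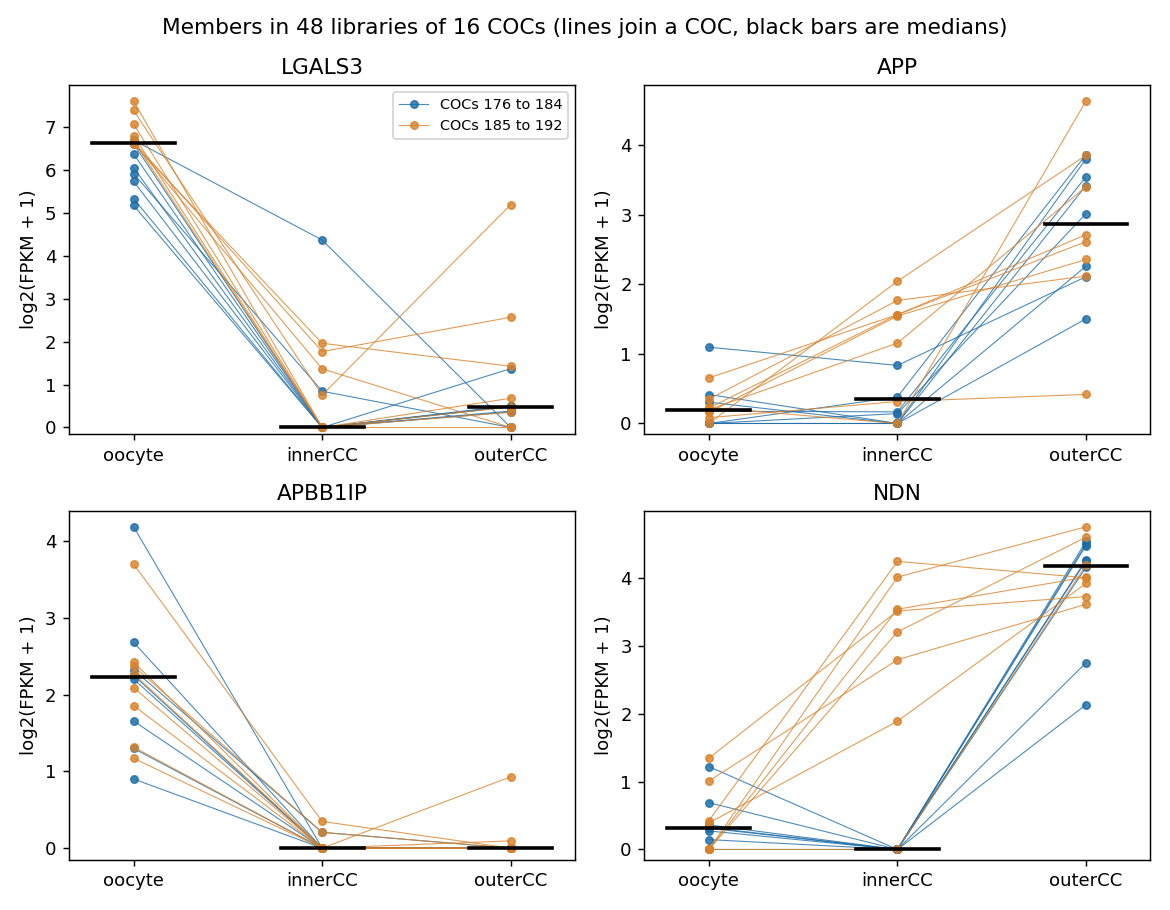
Level of each member as log2(FPKM + 1) in the oocyte, innerCC and outerCC of 16 COCs; lines join the samples of a COC, colours mark the sets of COC numbers and black bars are medians. LGALS3 and APBB1IP are high in oocytes, APP and NDN in outerCCs, and NDN in innerCCs lies at 0 in every COC from 176 to 184.

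The cumulus libraries with the most LGALS3 differed in their oocyte markers. In the outerCC of COC 191, LGALS3 was at 35.7 FPKM, or 36.6% of the oocyte median, beside GDF9 at 32.2%, BMP15 at 22.8% and APBB1IP at 24.6% of theirs. In the innerCC of COC 179, LGALS3 was at 19.7 FPKM, or 20.2% of the oocyte median, on about 43 fragments, while GDF9 was at 0.0393% and BMP15 at 0.0814%. That library had 648 genes over 0.5, the fewest of the series. The outerCC of COC 192 held LGALS3 at 4.94 FPKM with an oocyte marker sum of 2.33, whereas the outerCC of COC 190 had a marker sum of 91.3 with LGALS3 listed at 0. Without the outerCC of COC 191, the mean outerCC LGALS3 went from 2.94 to 0.754 FPKM, and without the innerCC of COC 179 the mean innerCC value went from 1.76 to 0.558. The part of oocyte RNA in the cumulus values of LGALS3 was not tested.

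**Figure D2:**
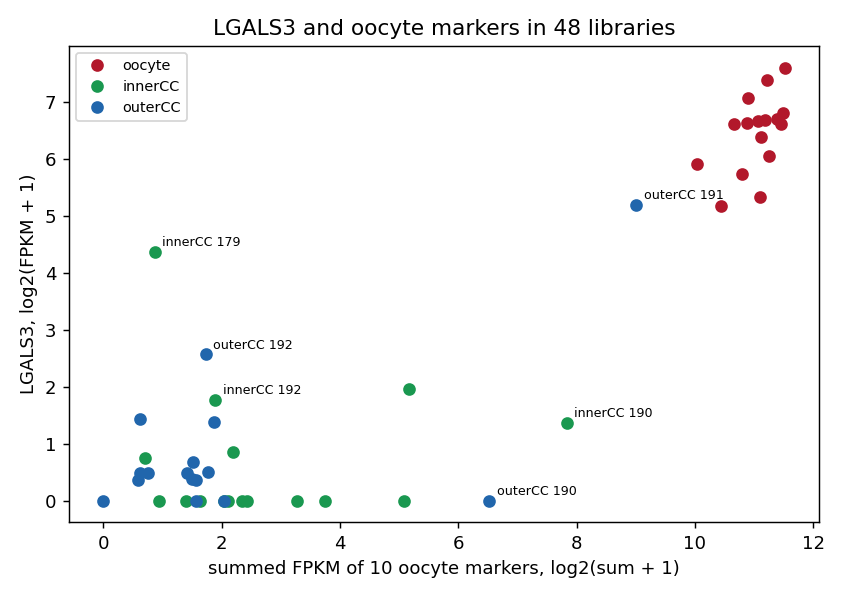
LGALS3 as log2(FPKM + 1) against the summed FPKM of 10 oocyte markers, as log2(sum + 1), with 1 point per library and colours for the sample types. The outerCC of COC 191 lies near the oocytes on both axes, while the innerCC of COC 179 has LGALS3 at 19.7 FPKM with a marker sum of 0.827.

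Oocyte LGALS3 also differed between the sets of COC numbers. Its median was 62.6 FPKM in COCs 176 to 184 and 106 in COCs 185 to 192, and 4 oocytes of the second set lay above all of the first. The mean difference was 0.94 on the log2(FPKM + 1) scale, against a median over detected oocyte genes of 0.17, and 9.14% of those genes differed at least as much in that direction. APBB1IP, the other oocyte member, had medians of 3.68 and 3.55 FPKM. The sets were recognised from innerCC gene numbers and the collection batch of each COC is not given, so no test was run on this difference.

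Seen by complex, both genes of a pair were over 0.5 FPKM on their own side in nearly every COC. The members were chosen for detection there at this same threshold, so these counts follow in part from that choice. In the study, most genes detected in oocytes, and most of those detected in outerCCs, were expressed in all 16 libraries. LGALS3 in the oocyte and APP in the outerCC were both over 0.5 in 15 of 16 COCs, and APBB1IP in the oocyte and NDN in the outerCC in 16 of 16. With the innerCC in place of the outerCC, each pair was complete in 7 COCs. For LGALS3 and APP these were 1 COC of the first set and 6 of the second, and for APBB1IP and NDN they were 0 and 7. Oocyte LGALS3 was 3.86 to 329 times outerCC APP in FPKM, with a median of 12.2, and the highest ratio came from COC 186 alone, where APP rested on about 1 fragment; the next was 49.8. Oocyte APBB1IP was 0.0575 to 5.1 times outerCC NDN, with a median of 0.211, and the highest ratio came from COC 180 alone, with 0.801 next.

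Levels of the paired genes showed no detectable relation across COCs. For oocyte LGALS3 and outerCC APP, Pearson's r of log2(FPKM + 1) was 0.027 in a two-sided permutation test over 16 COCs (p = 0.921, adjusted over the relations 0.951). By rank, Spearman's rho was -0.018 (permutation p = 0.951, adjusted 0.977). Without the 2 oocytes farthest from the median LGALS3 level, r was -0.348. Taken by set, the value was 0.531 for COCs 176 to 184, with an exact permutation p of 0.173, and -0.262 for COCs 185 to 192, with an exact p of 0.521. For oocyte APBB1IP and outerCC NDN, the permutation test gave an r of -0.403 over 16 COCs (p = 0.123, adjusted 0.951). Spearman's rho was -0.353 (permutation p = 0.179, adjusted 0.897), and the sets taken alone had r of -0.424 and -0.401 with exact permutation p of 0.295 and 0.33.

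The value for APBB1IP and NDN rested on 2 complexes. COC 180 combined the highest APBB1IP with the lowest NDN, and without it r was 0.078. COC 181 combined the lowest APBB1IP with the next lowest NDN, and without it r was -0.729 (permutation test, adjusted p = 0.038). Without the 2 oocytes farthest from the median APBB1IP level, r was 0.157. Of 12 relations planned among the members, 10 had a value, none had an unadjusted p under 0.05 over all its COCs and the lowest adjusted p was 0.951 for r. The remaining 2 had none because NDN did not vary in the innerCCs of COCs 176 to 184. In outerCCs, the permutation test for APP with NDN gave an r of 0.314 over 16 COCs (p = 0.236, adjusted 0.951), beside a rho of 0.459 (permutation p = 0.0759, adjusted 0.759). This value was 0.183 in COCs 176 to 184 (exact permutation p = 0.656) and 0.728 in COCs 185 to 192 (exact permutation p = 0.039, adjusted 0.16), and it was 0.093 adjusted for gene number and 0.000 under a scaling of libraries to a common 75th percentile.

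**Figure D3:**
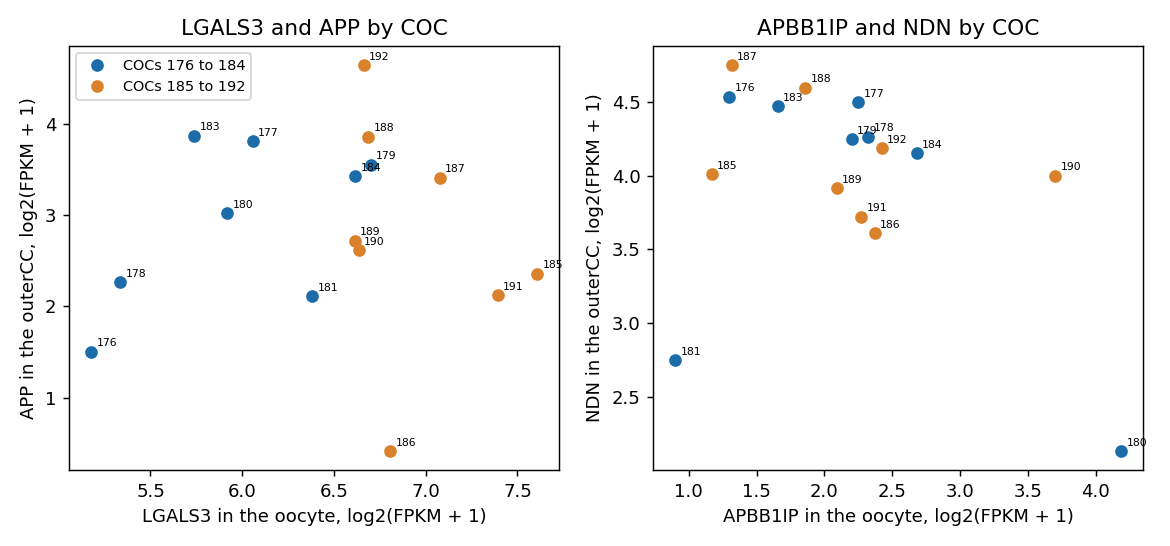
Oocyte level against outerCC level of LGALS3 with APP (left) and APBB1IP with NDN (right), each as log2(FPKM + 1), with 1 numbered point per COC and colours for the sets of COC numbers. The points form no line for LGALS3 and APP (r 0.027), and COCs 180 and 181 lie apart from the rest in the panel of APBB1IP and NDN.

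The biweight midcorrelation, a correlation that gives less weight to outlying samples, was -0.040 for LGALS3 with APP and -0.221 for APBB1IP with NDN over the 16 COCs. Among all pairs of an oocyte gene with an outerCC gene, 89% and 43.9% had an absolute value at least as large. An absolute value over 0.85 was reached by 0.00651% of the 108010093 pairs, and by none of the pairs of a member with a gene of the other side. The most extreme values were -0.819 for oocyte LGALS3, -0.709 for oocyte APBB1IP, 0.735 for outerCC APP and -0.802 for outerCC NDN.

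Between cumulus layers, APP and NDN were lower in the innerCC than in the outerCC, as most genes were. limma, fitted to log2(FPKM + 1) of all 12428 genes with Benjamini-Hochberg adjustment and an FDR under 0.01, called 77.4% of genes lower in innerCCs and 0% higher (4 genes at an unadjusted p under 0.05), with a median change of -1.42. APP changed by -2.14 (SE 0.320, adjusted p = 6.3e-06) and was lower in 16 of 16 COCs, as were 17.2% of genes. NDN changed by -2.54 (SE 0.465, adjusted p = 3.0e-05) and was lower in 15 of 16 COCs. These SEs and p-values come from a fit that did not pair libraries by COC. With the COC number as a block in limma, adjusted p was 4.8e-05 for APP and 8.2e-05 for NDN. Both genes counted as detected in cumulus cells through the outerCCs alone, so these p-values are not independent of the choice of members. FPKM are scaled to library size, so these changes are in the share of a gene in its library. Numbers of cells and amounts of RNA per cell cannot be read from them. LGALS3, at -0.20 (SE 0.439, adjusted p = 0.68), and APBB1IP, at -0.02 (SE 0.076, adjusted p = 0.85), were not called. With another scaling LGALS3 turned to 0.41, and APBB1IP, listed at 0 in most cumulus libraries, was 0.00.

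The innerCC values of APP and NDN followed the sets of COC numbers. NDN was listed at 0 in all 8 innerCCs of COCs 176 to 184, and in COCs 185 to 192 it ran from 0 through a median of 9.32 to 17.9 FPKM, with 7 of 8 over 0.5 and COC 192 at 0. Of the genes detected in outerCCs, 23% were at 0 in all 8 innerCCs of the first set, and 9.47% were also over 0.5 in at least 7 of the second. APP had innerCC medians of 0.052 and 1.94 FPKM in the 2 sets. Where NDN was at 0, a floor of 3 fragments per library put the outerCC at least 1.14-fold to 45.2-fold higher (median 23.2, 9 COCs), and the lowest bound came from COC 181, whose innerCC was the shallowest.

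Within COCs 185 to 192 alone, where limma called 1.53% of genes lower, APP changed by -1.52 (SE 0.489, adjusted p = 0.033) and NDN by -1.20 (SE 0.482, adjusted p = 0.065), and neither passed the threshold. Within COCs 176 to 184, where 80.4% of genes were called lower, the changes were -2.75 (SE 0.318, adjusted p = 9.6e-07) and -3.88 (SE 0.314, adjusted p = 2.3e-08). The first set is the one with few innerCC genes, so lower innerCC values there follow in part from how it was recognised. NDN was at 0 in all 8 of its innerCCs, and both genes were chosen through the outerCCs. The p-values of this set are therefore not independent evidence. The difference between the sets was not tested. In the second set the median innerCC level was 36.2% of the median outerCC level for APP and 61.8% for NDN. The median over 10433 genes was 46.1%. The share was lower than that of APP in 26.5% of these genes, and lower than that of NDN in 80.3%. With the number of genes per library as a covariate, limma gave -1.24 for APP (adjusted p = 0.10) and -0.37 for NDN (adjusted p = 0.63). It called 0.0322% of genes lower. Gene number went with layer, at 648 to 2639 in the innerCCs of the first set and 9054 to 11851 in outerCCs. This fit therefore cannot separate layer from gene number.

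**Figure D4:**
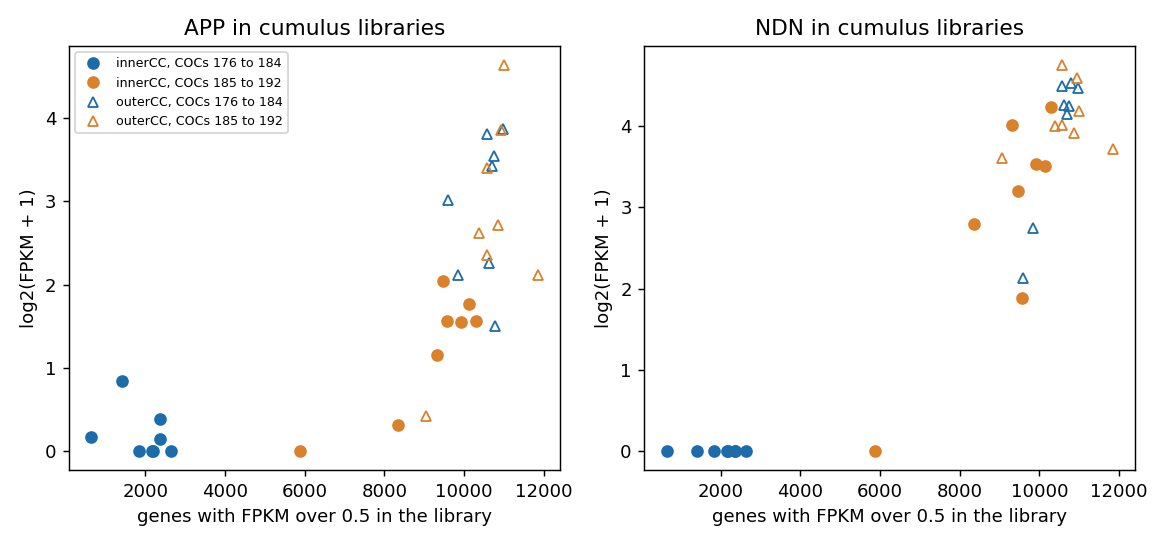
APP (left) and NDN (right) as log2(FPKM + 1) in 32 cumulus libraries against the number of genes with FPKM over 0.5 in the library; filled circles are innerCCs, open triangles outerCCs and colours the sets of COC numbers. The innerCCs of COCs 176 to 184, with 648 to 2639 genes, hold NDN at 0, and those of COCs 185 to 192 reach 17.9 FPKM.

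Genes that work with the members were taken from 5 lists of known partners, and 45 of them could be matched by symbol and were detected in COCs. Of these, 26 stand in the study's lists of genes specific to a sample type, chosen on these samples, and their direction is therefore not independent evidence. Between oocytes and outerCCs, limma (FDR under 0.01) called 14 of the 45 higher in oocytes and 28 lower, against 43.4% and 34.3% of all genes. With libraries scaled to a common 75th percentile these were 11 and 29, and over all genes 4372 higher and 5596 lower in place of 5394 and 4260, as the median change went from 0.25 to -0.27.

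The other galectins did not share the oocyte pattern of LGALS3 as a group. Of 4 detected galectin genes, 3 were lower in oocytes and 1 was higher, with a median change of -1.25. Over all genes, 34.3% were lower and 43.4% higher. LGALS1, which encodes the prototype galectin-1, had median FPKM of 44.6 in oocytes and 214 in outerCCs, a change of -1.86 (SE 0.363, adjusted p = 1.7e-05). LGALS9, a tandem-repeat galectin in the study's lists, changed by -4.30 (SE 0.249, adjusted p = 9.2e-18). LGALSL, which encodes a galectin-related protein and is also in those lists, changed by -0.64 (adjusted p = 0.0011). LGALS8, another tandem-repeat galectin, was higher in oocytes by 1.23 (SE 0.261, adjusted p = 6.0e-05), although with the 75th percentile scaling the change was 0.58 (adjusted p = 0.013) and no longer passed.

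Among 11 detected partners of galectin-3, 4 were higher in oocytes, 6 were lower and 1 was not called, with a median change of -1.32. The shares over all genes were 43.4% higher and 34.3% lower. For the 7 outside the study's lists the counts were 2, 4 and 1. LGALS3BP, a secreted glycoprotein bound by galectin-3, was a cumulus gene, over 0.5 FPKM in 8 of 16 innerCCs and in 16 of 16 outerCCs. Its median FPKM was 0 in oocytes, 3.41 in innerCCs and 54.4 in outerCCs. The limma change was -5.52 (SE 0.224, adjusted p = 4.0e-21). The lysosomal membrane glycoprotein LAMP2 and the ESCRT component TSG101 were higher in oocytes by 0.97 (adjusted p = 0.00037) and 0.86 (adjusted p = 0.00041), changes of 0.21 and 0.12 that did not pass under the 75th percentile scaling. CTNNB1, which encodes beta-catenin, changed by -0.33 (adjusted p = 0.14), and by -1.09 (adjusted p = 4.6e-09) under that scaling.

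Genes of the APP family, its adaptors and its processing were mostly higher in outerCCs, where APP itself was. Of 16 detected, 11 were lower in oocytes, 3 were higher and 2 were not called (median change -1.14). Shares over all genes were 34.3% lower and 43.4% higher. Of the 8 outside the study's lists, 5 were lower, 1 was higher and 2 were not called. ITM2B, a membrane protein that binds APP, had median FPKM of 3.83 in oocytes and 244 in outerCCs (change -5.45, SE 0.279, adjusted p = 3.8e-19). NCSTN, which encodes the gamma-secretase subunit nicastrin, changed by -1.90 (SE 0.328, adjusted p = 2.5e-06), and APLP2, an APP paralogue, by -1.54 (SE 0.284, adjusted p = 7.4e-06). The adaptor gene APBB2 changed by 0.43 (adjusted p = 0.062), and by -0.26 under the 75th percentile scaling.

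The genes around APBB1IP lay on both sides of the contrast between oocytes and outerCCs, as detected genes did in general. Of 10 detected genes of RAP1, talin and integrin activation, 6 were higher in oocytes and 4 were lower (median change 0.81). Among all genes 43.4% were called higher and 34.3% lower. In all, 9 of the 10 stand in the study's lists. FERMT2, which encodes the integrin activator kindlin-2 and is the gene outside those lists, had median FPKM of 104 in oocytes and 10.8 in outerCCs (change 3.34, SE 0.183, adjusted p = 2.2e-18). TLN1, which encodes talin-1, was lower in oocytes, with a change of -2.06 (SE 0.185, adjusted p = 1.4e-12), with medians of 0.313 and 5 FPKM. TLN2, which encodes talin-2, went the other way, with a change of 1.83 (SE 0.155, adjusted p = 3.0e-13) and medians of 4.07 and 0.304 FPKM, and is named here after its values were seen. EVL, an actin regulator of the Ena/VASP family, changed by -3.24 (adjusted p = 2.2e-15), and the integrin subunit gene ITGB3 by -1.57 (adjusted p = 7.9e-07). Since APBB1IP is best known in leukocytes, leukocyte markers were summed too. The 4 matched (CSF1R, CD3E, FCER1G and LCP1), all in the study's oocyte lists, summed to 11.4 to 25.5 FPKM in oocytes, with 0 to 27.1 (median 0) in innerCCs and 0 to 13.8 (median 0.635) in outerCCs. Both cumulus maxima belonged to COC 190, whose oocyte ranked next to the highest in APBB1IP. The innerCC and outerCC of this COC also had oocyte marker sums of 228 and 91.3, against medians of 3.44 and 1.9. APBB1IP in that innerCC, at 0.272 FPKM, rested on about 1 fragment, and no innerCC held more. The part of leukocyte RNA, or of oocyte RNA in cumulus libraries, in the APBB1IP values was not tested.

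All 4 detected genes of the necdin family and its partners were lower in oocytes, as 34.3% of all genes were, with a median change of -2.86. Of these 4, 3 stand in the study's lists. MAGED1, a MAGE-family relative of necdin, changed by -5.59 (SE 0.265, adjusted p = 5.5e-20), with medians of 0.0714 FPKM in oocytes and 64.6 in outerCCs. MAGEH1, the relative outside those lists, changed by -3.95 (SE 0.244, adjusted p = 5.1e-17). It was over 0.5 FPKM in 11 innerCCs, 16 outerCCs and 1 oocyte. By the same detection rule it is thus a cumulus gene not detected in oocytes, and its direction is not independent evidence either. MAGEL2, an imprinted neighbour of NDN in mammals, changed by -1.15 (adjusted p = 4.9e-10).

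**Figure D5:**
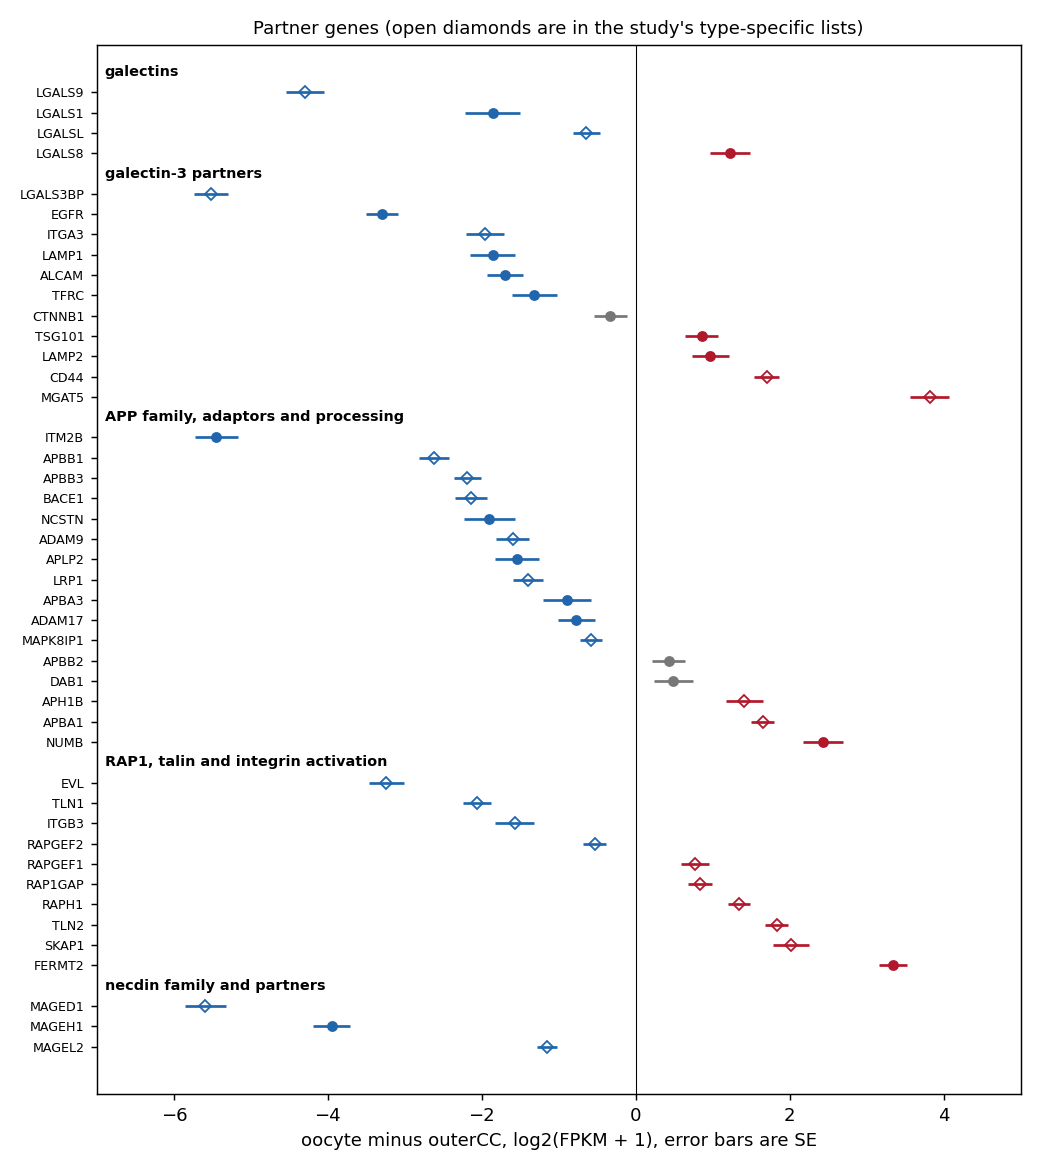
Oocyte minus outerCC change of partner genes on the log2(FPKM + 1) scale with its SE, by list; red genes were called higher in oocytes, blue lower and grey not called, and open diamonds are in the study's type-specific lists. The plotted genes of the necdin family lie on the outerCC side, from -5.59 to -1.15. The genes around APBB1IP lie on both sides, as detected genes did in general, with 43.4% called higher in oocytes and 34.3% lower.

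Between cumulus layers, limma called 36 of the 45 partner genes lower in innerCCs and 0 higher (37 and 0 at an unadjusted p under 0.05), beside 77.4% of all genes lower. Between oocytes and innerCCs, 19 were higher in oocytes and 4 lower, against 63.2% and 4.53% of all genes, and under the 75th percentile scaling 13 were higher and 8 lower. The 4 lower in oocytes were LGALS3BP, LGALS9, MAGED1 and MAGEH1, named here after their values were seen.

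The genes whose levels most resembled those of each member over the 48 libraries were picked by Pearson's r of log2(FPKM + 1), as a description, since these libraries share the contrast between oocyte and cumulus. For LGALS3 they included FKBP6 (r 0.960) and NEDD4L (0.959), and for APBB1IP they were the transcription factor genes GATA2 (0.970) and OVOL1 (0.952) and the matrix protein gene SMOC1 (0.952). For APP they were ARHGEF6 (0.932), TMC6 (0.925) and the metalloproteinase inhibitor gene TIMP3 (0.921). For NDN they were the WNT5A receptor gene ROR2 (0.980), a gene without a symbol (0.978) and SUPT4H1 (0.978). These choices depended on the measure, since by Spearman's rho only TMC6 stayed among the 3 nearest over 48 libraries, and the 3 named for NDN ranked 97, 190 and 609. Over the 16 outerCCs alone, LONRF3 (0.908) and GEM (0.871) were among the 3 genes nearest to APP, and PGAP3 (0.963) among those nearest to NDN, and the 3 nearest to LGALS3 and to APBB1IP over the 16 oocytes had no symbol.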

How the data were processed

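The authors aligned reads to UMD3.1 with STAR 2.5.2, removed duplicates with Picard 2.5 and deposited FPKM from Cufflinks 2.2.1. The unfiltered FPKM table was used, and the filtered table was not used. FPKM are not counts, so limma 3.58.1 (R 4.3.3) on log2(FPKM + 1) replaced the count models of the study. The main limma fits did not pair libraries by COC. Correlations used 100000 permutations with 16 COCs and all permutations with 8 (Python 3.11.15, scipy 1.17.1). Scripts were tested on simulated data. Read totals are not in the table, and fragments per value were estimated from the spacing of low FPKM, taking the smallest step as 1 fragment. They are approximate: in simulated libraries that kept no single-fragment genes the step was not always recovered, so a library's fragments can be off by a whole factor, as can the intervals and fold floors that rest on them. Intervals and floors cover counting error only.

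Symbols came from the study's supplementary lists, which hold part of the genes, so unmatched genes were not analysed here. Named genes were the members, the 3 nearest by r and the 4 partners of highest mean FPKM per list, of which 2 genes are not reported here by name or plotted. The members and lists were chosen with earlier results of these data known. The COC number pairs libraries by the labels, and deviations of libraries of a COC had mean correlations of 0.048 (oocyte and innerCC), 0.010 (oocyte and outerCC) and 0.154 (innerCC and outerCC). Alternatives changed the block, pseudocount, scaling, covariate, gene filter, variance model, detection threshold and COCs used.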

Additional observations from a re-analysis of the deposited data

How the results depend on the processing

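With the COC number as a replicate block, no call on a member changed (APP -2.14, adjusted p = 4.8e-05; NDN -2.54, adjusted p = 8.2e-05), and 38 partner genes were lower in innerCCs in place of 36. Without each COC in turn, innerCC minus outerCC ran from -2.27 to -1.97 for APP, -2.73 to -2.41 for NDN, -0.51 to 0.08 for LGALS3 and -0.04 to 0.04 for APBB1IP, the last 2 turning without COC 191. NDN at -0.37 and APP at -1.24 with the gene number as covariate, and NDN at -1.20 and APP at -1.52 in COCs 185 to 192, missed the threshold. Gene number went with cumulus layer, so the covariate fit cannot separate them. LGALS3 turned to 0.41 with the 75th percentile scaling and 0.20 in COCs 176 to 184. APBB1IP stayed near 0, at 0.03 with a pseudocount of 0.1, 0.00 with that scaling, 0.05 with the covariate and 0.03 in COCs 176 to 184. A pseudocount of 0.1 moved innerCC minus outerCC to -3.66 (APP), -4.38 (NDN) and -0.81 (LGALS3) with the same calls, and oocyte minus outerCC to 7.24 (LGALS3), -4.67 (APP), -5.55 (NDN) and 4.84 (APBB1IP), and oocyte minus innerCC to 8.06 (LGALS3) and 4.81 (APBB1IP). In COCs 176 to 184, oocyte minus innerCC turned to 0.06 for APP and 0.42 for NDN. Partner genes lower in innerCCs than outerCCs were 0 with the covariate and 0 in COCs 185 to 192 (limma; 7 and 27 at an unadjusted p under 0.05). Against innerCCs, those higher in oocytes were 12 with the covariate, and those lower were 8 (scaling), 23 (covariate), 0 (COCs 176 to 184, also 0 at an unadjusted p under 0.05) and 13 (COCs 185 to 192). Libraries over a threshold of 0.1 in place of 0.5 FPKM were 12 in place of 5 for LGALS3 in outerCCs, 10 in place of 2 and 11 in place of 7 for APP in oocytes and innerCCs, 11 in place of 4 for NDN in oocytes and 3 in place of 0 for APBB1IP in innerCCs; over 1 FPKM they were 1 for APP in oocytes and 0 for APBB1IP in outerCCs. By Spearman's rho, the 3 genes nearest a member kept fewer than 2 in 6 of 8 choices. APBB2 turned to -0.26 under the scaling. The scaling moved the median change of all genes from -1.42 to -1.12 (innerCC minus outerCC) and from 1.47 to 0.72 (oocyte minus innerCC, 5404 higher and 1108 lower in place of 7857 and 563). The cause of these shifts was not tested.

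Correlations near 0 changed sign easily. LGALS3 with outerCC APP became -0.018 (Spearman), -0.040 (biweight), -0.086 (untransformed FPKM), -0.262 (COCs 185 to 192) and -0.348 (without the 2 farthest COCs, an alternative chosen after seeing the data, as are the others so named), and APBB1IP with outerCC NDN became 0.157 without them. In COCs 185 to 192, LGALS3 with innerCC APP became -0.024 (Spearman), -0.105 (biweight), -0.185 (adjusted for gene number) and -0.148 (without the 2 farthest), and APBB1IP with innerCC NDN became 0.376 (untransformed) and 0.032 (adjusted). LGALS3 with APBB1IP became 0.075 (adjusted) and 0.114 (COCs 176 to 184). OuterCC with innerCC APP became, in COCs 176 to 184, 0.152 (Spearman), 0.423 (biweight), 0.012 (pseudocount 0.1), 0.593 (scaling) and 0.446 (without the 2 farthest), and in COCs 185 to 192 -0.071 (Spearman), -0.005 (pseudocount 0.1) and -0.252 (untransformed). OuterCC with innerCC NDN became -0.438 without the 2 farthest. Leaving out each COC gave -0.181 to 0.141 (LGALS3 with outerCC APP), -0.729 to 0.078 (APBB1IP with outerCC NDN), -0.627 to 0.168 (APBB1IP with innerCC NDN), -0.287 to 0.044 (LGALS3 with APBB1IP), -0.416 to 0.501 and -0.650 to 0.767 (APP between layers, by set) and -0.139 to 0.355 (NDN between layers). The median FPKM of 3 fragments was 0.784 for NDN and 1.36 for LGALS3 in innerCCs, so values near or under these rest on few fragments.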
